A study of Mus musculus with 15 samples.

Results

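Transcript levels were compared between CIZ1 null primary embryonic fibroblasts (PEFs) treated with doxycycline to switch on a GFP-CIZ1 transgene and untreated PEFs of the same kind. The comparison uses 4 of the 15 samples of the study, 2 treated and 2 untreated, taken by their labels. It covers 19768 of the 65522 transcription units in the table of FPKM (fragments per kilobase of transcript, scaled to the number of mapped fragments), those with a mean of at least 1 FPKM over the 4 samples. All 4 samples were female C57BL/6 fibroblasts grown for fewer than 5 passages, homozygous for a gene trap inserted downstream of exon 1 of Ciz1 (CIZ1 -/-). All 4 carried the inducible CIZ1 transgene, so the untreated samples differ from the treated ones in the drug and not in the genotype given. The transgene is a pair of insertions, a transactivator that needs doxycycline and a responder that it switches on. Treated samples 14 and 15 received doxycycline at 5 to 10 μg/ml and were examined 24 h later, and samples 6 and 13 were not treated. The other primary populations, 3 from wild-type (WT) embryos and 2 from CIZ1 null embryos without the transgene, are used to place the values and to choose the units that differ between WT and null, and 6 culture-adapted populations enter in single sentences. The paper's induction used 2 inducible null populations, from different embryos and at different passages. The labels do not say which embryo each of the 4 samples came from, so the p-values measure the spread between these samples. That spread can include differences between embryos and passages. No treated sample without the transgene was among them, and an effect of doxycycline itself and an effect of GFP-CIZ1 cannot be told apart.

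CIZ1 is a nuclear zinc finger protein that binds the cell cycle inhibitor p21 and promotes the start of DNA replication. In female cells it gathers in a large patch on the inactive X chromosome, held there by the long noncoding RNA Xist, and fibroblasts that lack it lose Xist from that patch. The polycomb repressive complexes PRC1 and PRC2 lay down silencing marks on the histones of that chromosome and of many developmental genes elsewhere. Embryonic fibroblasts secrete and remodel extracellular matrix, and in culture they also switch stress programmes on and off with the supply of nutrients and oxygen.

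Ciz1 is a protein-coding gene listed at the locus chr2:32308345-32381938 in GRCm38, a stretch that units of Dnm1 and 1110008P14Rik share. It was expressed in both treated samples and close to 0 in both untreated ones. Its level was 0.171 FPKM in sample 6 and 0.514 in sample 13, against 296 in sample 14 and 191 in sample 15. The groups lay far apart, with means of 0.343 ± 0.243 (SD, n = 2) and 244 ± 74.7 FPKM (SD, n = 2), a ratio of 711. On the scale of log2(FPKM + 1) the difference was 7.49 ± 0.35 (SE), and it passed the test across all units (limma, adjusted p = 0.0102 by the Benjamini-Hochberg method). With any 1 of the 4 samples left out the difference kept its direction, but the adjusted p was 0.0881 to 0.438, and without the filter on low units it was 0.0594 (limma, Benjamini-Hochberg). The untreated values were like those of the 2 null PEFs without the transgene, which were at 0.279 and 0.251 FPKM, so that no transcript from the transgene stood out in the absence of the drug. In the 3 WT PEFs Ciz1 was at 19, 25 and 21.4 FPKM. The treated mean was therefore 11.2 times the WT mean, and the lower of the treated values was 7.64 times the highest WT value. Ciz1 ranked 313th among the units of sample 14 and 458th in sample 15. In the culture-adapted populations it was at 18.7 to 24.1 FPKM in the 3 WT and at 0.0546 to 0.724 in the 3 null. Reads from the endogenous gene and from the transgene are counted together in this unit, and 8 units in the table overlap its locus.

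**Figure D1:**
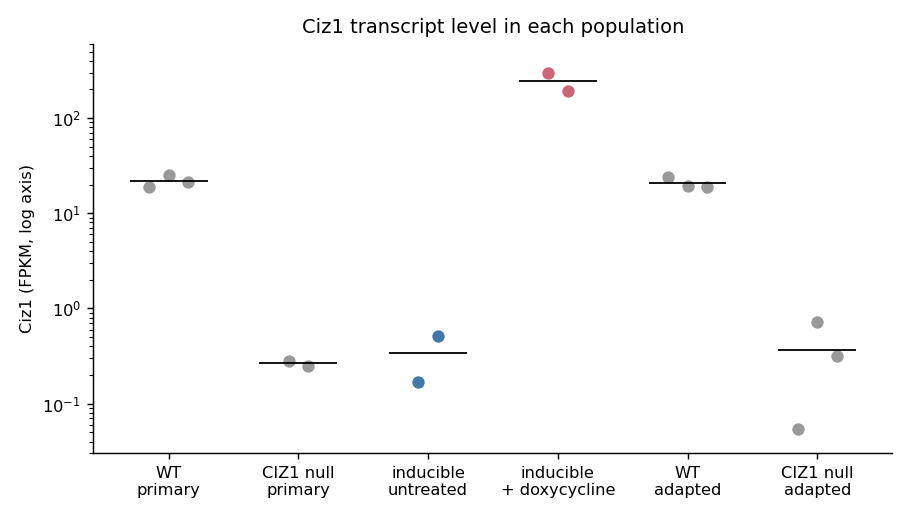
Ciz1 level in FPKM on a log axis in each of the 15 samples, 1 point per sample, with a bar at each group's mean. Both treated inducible samples, at 296 and 191, lie above every WT population, and both untreated inducible samples, at 0.171 and 0.514, lie among the null populations.

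Genes around Ciz1 had small differences. Of the 19 other units tested within 100 kb of it on chromosome 2, 2 were higher and 3 were lower in both treated samples than in both untreated ones. Among all units tested, 8.92% were higher and 10.8% lower in that sense. The log2 differences of the 19 lay between -0.43 and 0.24, and 0 passed the test.

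Beyond Ciz1, 1 further unit passed the test, so that 2 of 19768 units were called (0.0101% of those tested). This was a unit of Rpl34-ps2, a processed pseudogene of a ribosomal protein gene, at chr13:116153781-116154134. It was listed at 0 in both untreated samples and stood at 88.9 and 123 FPKM in the treated ones (log2 difference 6.72 ± 0.31 SE, limma, adjusted p = 0.0102 by Benjamini-Hochberg). The same unit was at 37.4 FPKM in 1 of the 2 null PEFs without the transgene and listed at 0 in the other 4 primary populations, and reads of a pseudogene cannot be separated from those of its near-identical parent. An exact 0 in these files can also be a failed estimate, since counting divided reads between units that share a locus. Its call, too, was lost with any 1 sample left out, at an adjusted p of 0.0973 to 0.438, and without the filter, at 0.0594 (limma, Benjamini-Hochberg). The next lowest adjusted p was 0.203, for the pseudogene Gm9431 (limma, Benjamini-Hochberg), and 347 units had an unadjusted p under 0.05 (1.76%). With 2 samples against 2, an exact permutation test of a single gene has 6 arrangements and cannot go below p = 0.333, so everything that follows about single genes is a description of 4 samples.

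For these descriptions a unit is called higher or lower when both treated samples lie on the same side of both untreated samples. By that measure 1763 units were higher (8.92%) and 2140 were lower (10.8%), and the median log2 difference over all units was -0.006. A wide shared difference is defined more strictly, as no overlap together with a difference of at least 1 log2 unit between the means. It was met by 159 units that were higher (0.804%) and by 190 that were lower (0.961%). Of the 159, 84 were protein coding, 25 were pseudogenes and 33 had no gene symbol, and 28 were listed at 0 in both untreated samples. Of the 190, 138 were protein coding, 14 were pseudogenes and 16 had no symbol, and 14 were listed at 0 in both treated samples. Units without a symbol were 538 of all 19768 tested and pseudogenes 1013. The untreated samples differed in depth, which can be followed only in relative terms from the size of the smallest steps in the FPKM: sample 13 had 0.334 of the depth of sample 6, while samples 14 and 15 had 0.801 and 0.599. Tested units at 0 numbered 112 in sample 6 and 378 in sample 13, against 175 and 270 in the treated samples. Across all tested units the likeness of samples did not follow the treatment either, as sample 6 correlated best with treated sample 14 (Pearson's r = 0.937 across units, which are not replicates) and sample 13 best with treated sample 15 (0.950), while the untreated pair was at 0.905 and the treated pair at 0.921.

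**Figure D2:**
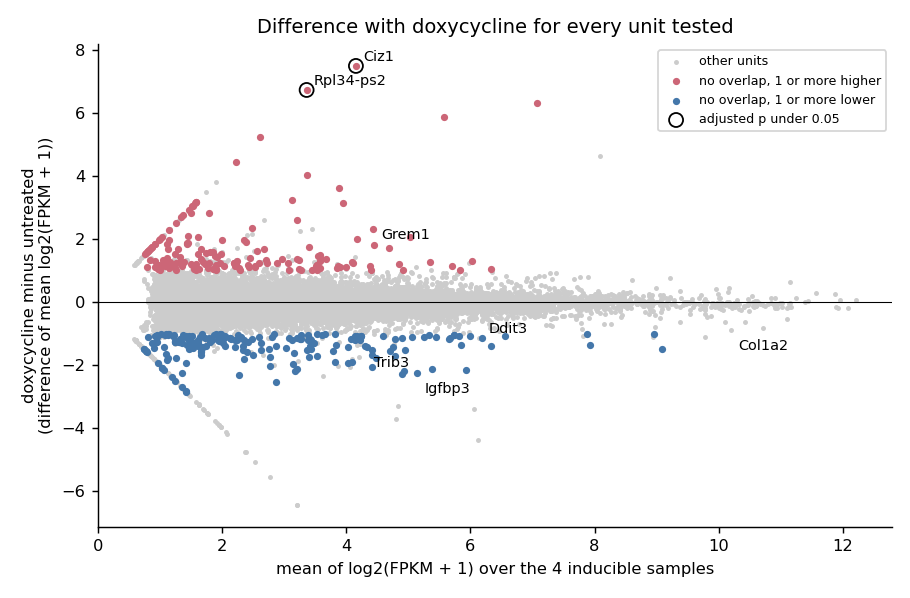
Difference between doxycycline and untreated on the log2(FPKM + 1) scale against the mean level over the 4 samples, for each of the 19768 units tested. Red and blue points are the 159 higher and 190 lower units without overlap and with a difference of at least 1, and open circles mark the 2 units that passed the test, which stand apart at 7.49 and 6.72.

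Matrix genes were lower in both treated samples in a larger share of cases than any other of 23 gene lists. Of 40 collagens and matrix proteins tested, 27 were lower without overlap (67.5%, against 10.8% of all units) and 0 were higher, the median log2 difference was -0.57, and 38 of 40 lay below zero. Against all 4 untreated null PEFs it was 22 of 40 (55%, against 4.03%). None passed the test, and 10 met the stricter definition. In a bulk population, fewer cells of a type and less RNA per cell cannot be told apart.

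Fibrillar collagens were among those 27. Col1a2, a chain of type I collagen, was at 1542 and 1656 FPKM in the untreated samples and at 851 and 889 in the treated ones (log2 difference -0.88 ± 0.22 SE). Its partner chain Col1a1 was at 2865 and 1743 untreated and at 1676 and 946 treated (-0.83 ± 0.39), so that the groups were separated by a narrow margin. Col3a1, the chain of type III collagen, was at 282 and 530.4 untreated and at 90.7 and 253 treated (-1.35 ± 0.56). Both treated samples were low for Col1a2 against every other primary population as well, since the 3 WT lay at 1423 to 1542 and the 2 null without the transgene at 1559 and 1594.

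Collagens that bind to fibrils or to basement membranes were lower too. Col14a1, which sits on the surface of fibrils, was at 2.27 and 3.08 FPKM untreated and at 0.331 and 0.765 treated (-1.25 ± 0.36). Col15a1, which links basement membranes to the matrix around them, was at 5.65 and 4.06 untreated and at 1.92 and 1.22 treated (-1.19 ± 0.34). The chains of type VI collagen showed smaller differences, Col6a1 being at 270.0 and 233 untreated and at 176 and 169 treated (-0.54 ± 0.25).

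Genes of elastic fibres and of fibril assembly completed the group. Fbn2, a fibrillin that builds the microfibrils on which elastin is laid down, was at 25.9 and 62.1 FPKM untreated and at 8.48 and 14.3 treated (-1.77 ± 0.50). Eln, elastin itself, was at 33.6 and 53.7 untreated and at 22.3 and 3.74 treated (-2.05 ± 0.75), with the treated samples far apart from each other. Ogn, a small leucine-rich proteoglycan that regulates fibril growth, was at 22.4 and 55.7 untreated and at 10.2 and 13.2 treated (-1.53 ± 0.47). Sample 13 was the higher of the untreated pair for Fbn2, Eln, Ogn and Col3a1, and sample 6 for Col1a1 and Col15a1. The proteoglycan Dcn did not separate the groups, at 47.7 and 222 FPKM untreated and at 18.5 and 115 treated. Thbs1 and P4hb, a secreted glycoprotein and an enzyme that folds procollagen, had differences of 0.10 and 0.00 and were the 2 members not below zero.

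Fibroblast identity markers were lower in part. Of 12, all above 1 FPKM in each primary sample, 4 were lower without overlap (33.3%, against 10.8% of all units) and 0 were higher. Of these 12, 9 lay below zero and the median log2 difference was -0.52. Their summed level was 9788 and 9176 FPKM in the untreated samples against 7919 and 6203 in the treated ones. The 4 were Col1a1, Col1a2, Col3a1 and Fn1, which are also members of the matrix list and are counted in that sum. Highest in level among the rest were Vim and Thy1. Vim was at 2709 and 1977 FPKM untreated and at 3088 and 2080 treated, and Thy1 at 769 and 670 untreated and at 659 and 791 treated. All 8 markers other than the 4 overlapped, with differences from -2.05 for the proteoglycan Lum (19.2 and 56.4 untreated, 2.06 and 21.2 treated) to 0.27 for the transcription factor Prrx1. Of the markers of blood cells and macrophages, 0 of 5 tested were without overlap, with summed levels of 69.3 to 107 FPKM untreated and 78.6 to 80.9 treated. Most of that sum was Lyz2, at 71.9 and 55.9 FPKM untreated and at 49.2 and 65.5 treated. In the other primary populations Lyz2 was at 11.8 to 20.7 in WT and at 50.7 and 5.58 in null PEFs without the transgene. Markers of the remaining cell types had lower sums. Summed epithelial markers were at 0.765 to 1.09 FPKM untreated and 1.76 to 2.81 treated, endothelial ones at 1.18 to 3.75 and 1.43 to 2.76, muscle ones at 7.65 to 10.7 and 4.4 to 6.46, cartilage ones at 6.43 to 6.74 and 8.12 to 13.7, and neural ones at 1.83 to 2.47 and 1.54 to 2.67. Of the epithelial markers, Cdh1 was at 0 in both treated samples and at 0 and 0.0384 FPKM untreated, and Krt18, the one tested, was higher at 1.6 and 1.39 treated against 0.958 and 0.624 untreated. The part of these marker levels in the matrix result was not tested.

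Enzymes that cut the matrix were lower as well. Of 22 matrix metalloproteinases, related proteases and inhibitors tested, 11 were lower without overlap (50%, against 10.8% of all units) and 0 were higher. The median log2 difference was -0.43 and 0 were called. Mmp13, a collagenase, was at 5.2 and 8.25 FPKM untreated and at 1.42 and 2.29 treated (-1.42 ± 0.36). Mmp2, a gelatinase made in quantity by fibroblasts, was at 101 and 147 untreated and at 65.3 and 85 treated (-0.70 ± 0.32). Mmp11, a protease first known from tumour stroma, was at 28.8 and 34 untreated and at 20.5 and 19.5 treated (-0.62 ± 0.28). The inhibitor Timp1 overlapped, at 581 and 324 untreated and at 647 and 544 treated. Mmp12, a macrophage elastase that was not on the list, was higher at 2.84 and 9.06 FPKM treated against 0.261 and 0.755 untreated, and was named after its values were seen.

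The integrated stress response was the third list with a large share of lower members. This pathway slows translation when amino acids, haem or protein folding fail, and it raises the transcription factor ATF4, which in turn induces genes for amino acid synthesis and transport, for tRNA charging and for its own shut-off. Of 45 genes of this response and of the unfolded protein response tested, 21 were lower without overlap in the treated samples (46.7%, against 10.8% of all units) and 0 were higher, with a median of -0.23 and 0 called. Against an untreated arm of all 4 untreated null PEFs, 7 of 45 were lower without overlap (15.6%, against 4.03% of all units in that arrangement). The 21 did not include the chaperones of the endoplasmic reticulum on the list.

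The transcription factors and regulators of the response come first. Atf4 was at 239 and 189 FPKM untreated and at 155 and 155 treated (-0.45 ± 0.27). Ddit3, the factor CHOP that acts downstream of ATF4, was at 95.8 and 120.2 untreated and at 47.3 and 48.4 treated (-1.15 ± 0.28). Trib3, a pseudokinase that binds ATF4 and dampens it, was at 39.3 and 26.1 untreated and at 10.8 and 12 treated (-1.42 ± 0.32). The treated pair agreed closely in these genes, and the treated values of Ddit3 lay within the range of the WT PEFs (38.6 to 53.9 FPKM) while both untreated values lay above all 5 other primary populations. Nupr1, a small nuclear stress protein, was at 114 and 107 untreated and at 69.4 and 54.2 treated (-0.84 ± 0.28).

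Enzymes of amino acid supply were also among the 21. Asns, which makes asparagine, was at 142 and 103 FPKM untreated and at 81.9 and 89.6 treated (-0.50 ± 0.29). Cth, an enzyme of cysteine synthesis, was at 13.6 and 15 untreated and at 6.35 and 8.98 treated (-0.84 ± 0.31). Pck2, a mitochondrial enzyme that makes phosphoenolpyruvate, was at 67.4 and 46.1 untreated and at 40.3 and 30 treated (-0.67 ± 0.33). The secreted factor Fgf21 was at 3.14 and 1.15 FPKM untreated and at 0 and 0.51 treated (-1.28 ± 0.47). Herpud1, a part of the machinery that removes misfolded proteins, was at 49.3 and 48 untreated and at 30.7 and 31.5 treated (-0.63 ± 0.27). By contrast Hspa5, the main chaperone of the endoplasmic reticulum, was at 564 and 413 untreated and at 485 and 418 treated (-0.10 ± 0.28), and Hsp90b1, Calr, Pdia4, Dnajb9, Creld2, Hyou1 and Manf overlapped in the same way.

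ATF4 binds DNA together with C/EBP factors at a composite element, and the promoters of several of these members hold its core. The promoters searched run from 250 bases before to 50 bases after each gene's start in RefSeq (GRCm38.p6), and the motif searched was TGATGNAA on either strand, which reads TTNCATCA on the other. It was found in 8 of the 17 promoters of the 21 lower members for which a promoter was given (47.1%), in 12 of 44 promoters of the whole list (27.3%), and in 1304 of 32851 promoters of all genes (3.97%). A match is a match of letters and not a shown binding site. The stretches below show the match in 6 of them, printed 5′ to 3′ on the strand of the gene, up to 40 bases to each side and ending before the start, with the motif in capitals.
Asns: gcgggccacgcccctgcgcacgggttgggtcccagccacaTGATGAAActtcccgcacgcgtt
Fgf21: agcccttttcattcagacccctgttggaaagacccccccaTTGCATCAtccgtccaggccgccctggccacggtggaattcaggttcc
Nupr1: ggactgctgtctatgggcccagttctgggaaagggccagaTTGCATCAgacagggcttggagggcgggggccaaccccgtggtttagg
Herpud1: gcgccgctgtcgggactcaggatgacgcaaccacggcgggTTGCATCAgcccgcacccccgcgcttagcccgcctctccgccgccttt
Pycr1: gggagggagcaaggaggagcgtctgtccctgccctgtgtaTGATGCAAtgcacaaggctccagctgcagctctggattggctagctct
Pck2: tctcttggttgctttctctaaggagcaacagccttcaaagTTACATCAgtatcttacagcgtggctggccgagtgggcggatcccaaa
They lie at chr6:7693210-7693272 (minus strand) for Asns, chr7:45615582-45615669 (minus) for Fgf21, chr7:126625533-126625620 (minus) for Nupr1, chr8:94386277-94386364 (plus) for Herpud1, chr11:120643804-120643891 (minus) for Pycr1 and chr14:55540123-55540210 (plus) for Pck2. The gene with the largest difference of the list, Trib3, has its match at or after the start, and Ddit3 is not among the 8.

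Genes of the oxidative stress response driven by NRF2 were higher in the treated samples. NRF2 is a transcription factor held in check by KEAP1 until oxidants or electrophiles free it, and its targets make glutathione, regenerate NADPH and store iron. Of 28 tested, 12 were higher without overlap in the treated samples (42.9%, against 8.92% of all units) and 1, the secreted peroxidase Gpx3, was lower (3.57%), with a median of 0.25 and 0 called.

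Nqo1, a quinone reductase and a standard reporter of NRF2, was at 7.72 and 8.45 FPKM untreated and at 48.6 and 25.3 treated (1.99 ± 0.39). Gsta4, a glutathione transferase for lipid aldehydes, was at 13.8 and 23.5 untreated and at 64.7 and 28.1 treated (1.20 ± 0.49). These 2 genes had the largest differences of the 12, while the detoxifying enzymes Gstm1 and Mgst1 overlapped with differences of 0.02 and 0.019. In both Nqo1 and Gsta4, sample 14 was the higher of the treated pair, and for Nqo1 the treated pair straddled the top of the WT range (11.4 to 26.5). Glutathione synthesis was represented by Gclm and Gclc, the regulatory and catalytic subunits of its first enzyme. Gclm was at 2.61 and 3.37 untreated and at 5.8 and 4.98 treated (0.68 ± 0.31), and Gclc was at 6.16 and 8.39 untreated and at 11.4 and 10.1 treated (0.52 ± 0.30). Iron storage followed with Fth1, the ferritin heavy chain, at 1006 and 957 untreated and at 1482 and 1211 treated (0.45 ± 0.24). Txnrd1, which reduces thioredoxin, was at 61.9 and 51.9 untreated and at 85.5 and 73.5 treated (0.48 ± 0.28), below the 98.4 to 152 FPKM of the WT PEFs. The other 6 were Pgd, Taldo1, G6pdx and Me1, enzymes of the pathways that make NADPH, with the glutathione reductase Gsr and the ferritin light chain Ftl1. Hmox1, haem oxygenase, was high in sample 14 alone, at 276 FPKM against 86.4 in sample 15 and 92.6 and 89.8 untreated. Nfe2l2, which encodes NRF2, overlapped at 28.4 and 33.1 untreated and at 30.6 and 37.6 treated.

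NRF2 binds the antioxidant response element, and its core TGACNNNGC, or GCNNNGTCA on the other strand, was searched in the same way. It was found in 5 of 14 promoters of the higher members (35.7%), in 10 of 33 promoters of the whole list (30.3%), and in 4071 of all 32851 (12.4%). The 3 stretches below are those whose match ends before the start, printed as above with the motif in capitals.
Gclm: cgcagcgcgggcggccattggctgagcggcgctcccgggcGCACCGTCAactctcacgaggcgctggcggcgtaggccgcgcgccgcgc
Txnrd1: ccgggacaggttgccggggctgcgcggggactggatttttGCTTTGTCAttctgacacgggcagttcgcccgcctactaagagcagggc
G6pdx: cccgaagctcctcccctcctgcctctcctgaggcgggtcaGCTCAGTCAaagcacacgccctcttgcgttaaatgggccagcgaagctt
They lie at chr3:122245383-122245471 (plus strand) for Gclm, chr10:82859074-82859162 (plus) for Txnrd1 and chrX:74428889-74428977 (minus) for G6pdx. Nqo1, with the largest difference in the list, is not among the genes with a match in this window. A member for which no promoter was given cannot show a match.

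**Figure D3:**
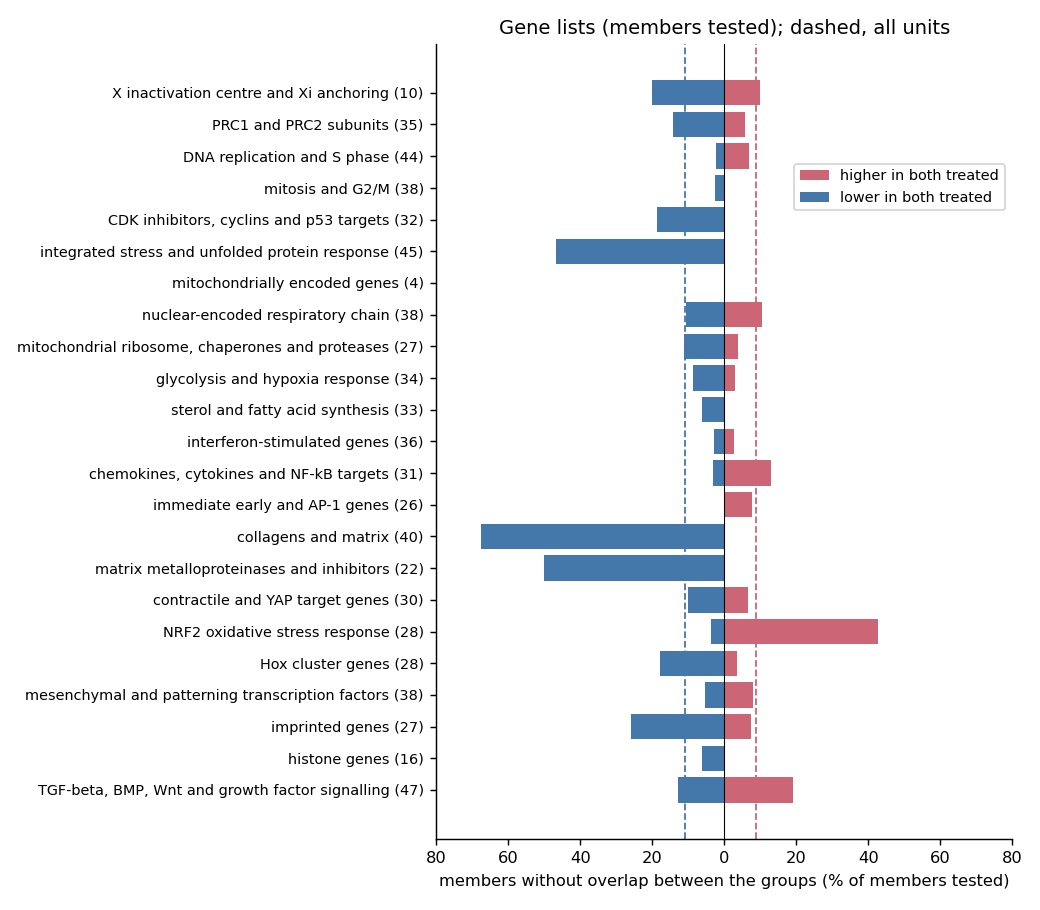
Share of the tested members of each of 23 gene lists that were higher (red, to the right) or lower (blue, to the left) in both treated samples without overlap, in percent of the members tested, whose number stands in parentheses. Dashed lines mark the shares among all units, 8.92% higher and 10.8% lower, and the matrix list at 67.5% lower and the NRF2 list at 42.9% higher are the longest bars on their sides.

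Imprinted genes, expressed from 1 parental copy and often active in fetal growth, were lower in 7 of 27 cases without overlap (25.9%, against 10.8% of all units). They were higher in 2 (Peg12 and Nnat, 7.41%, against 8.92%), with a median of -0.21 and 0 called. Of the 7, Mest and Copg2 share a locus, as do Igf2r and Airn, and Nespas shares that of Gnas. The 7 are therefore not all separate observations. The count depends on the samples used: without untreated sample 6 it was 22 of 27 (81.5%, against 33.8% of all units), but without untreated sample 13 it was 7 (25.9%, against 28.8%), without treated sample 14 it was 9 (33.3%, against 29.9%) and without treated sample 15 it was 13 (48.1%, against 31%). Mest, a paternally expressed gene that is high in embryonic mesoderm, was at 52.1 and 79.3 FPKM untreated and at 8.45 and 18.5 treated (-2.27 ± 0.44). The treated values of Mest lay close to the 7.88 to 13.9 FPKM of WT and the 9.72 and 16.7 of null PEFs without the transgene, and the untreated ones lay above all of these. Igf2, a fetal growth factor, was at 249 and 352 untreated and at 131 and 207 treated (-0.84 ± 0.35). Cdkn1c, the inhibitor p57 of cyclin-dependent kinases, was at 46.7 and 118 untreated and at 33.7 and 31.9 treated (-1.16 ± 0.47). Airn, the antisense transcript that silences Igf2r on the paternal copy, was at 3.47 and 3.73 untreated and at 0.414 and 1.88 treated (-1.19 ± 0.43), and since the library kit does not mark strand its reads cannot be told from those of overlapping genes. The growth-restraining noncoding RNA H19 overlapped, at 497 and 1046 untreated and at 181 and 621 treated. The library with the larger values in these genes was sample 13 on the untreated side and sample 15 on the treated side for Mest, Igf2 and H19.

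Among 47 ligands, antagonists and targets of TGF-beta, BMP, Wnt and growth factor signalling, 9 were higher (19.1%, against 8.92% of all units) and 6 were lower (12.8%, against 10.8%) without overlap, with a median of -0.007 and 0 called. The BMP antagonist Grem1 was among the most clearly separated genes, at 11.7 and 9.66 FPKM untreated and at 41.6 and 38.3 treated (1.81 ± 0.28). The treated values of Grem1 lay within the WT range of 17.3 to 51.6, and both untreated values lay below every other primary population. The EGF receptor ligand Ereg was at 2.46 and 1.8 untreated and at 7.69 and 4.35 treated (1.13 ± 0.37). On the other side stood the carrier of insulin-like growth factors Igfbp3, whose unit with the largest gap was at 42 and 138 untreated and at 14.1 and 16.2 treated (-2.26 ± 0.57). Chrd, an antagonist of BMPs, was at 4.83 and 4.54 untreated and at 1.89 and 2.55 treated (-0.83 ± 0.31).

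Of 31 chemokines, cytokines and related genes tested, 4 were higher (12.9%, against 8.92% of all units) and 1 was lower (3.23%, against 10.8%), shares that are not far from the background. Cxcl14, a chemokine of skin and stroma, was at 109 and 116 FPKM untreated and at 249 and 183 treated (0.92 ± 0.28). Il11, a cytokine of the IL-6 family, was at 0.438 and 1.47 untreated and at 4.91 and 2.12 treated (1.19 ± 0.47), below the WT range of 4.45 to 15.3 in sample 15. Il1rl1, the receptor of IL-33, was at 144 and 99.9 untreated and at 173 and 298 treated (0.91 ± 0.37).

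Regulators of the inactive X chromosome and polycomb subunits were close to the background. Xist itself was at 21 and 40.5 FPKM untreated and at 19.8 and 38.4 treated (log2 difference -0.08 ± 0.47), so the samples differed by more within each group than between them. Of 10 genes of the X inactivation centre and of the anchoring of the inactive X, 1 was higher and 2 were lower without overlap. These are shares of 10% and 20%, against 8.92% and 10.8% of all units. Smchd1, a chromatin protein needed to keep genes of the inactive X silent, was the higher one, at 7.68 and 4.44 untreated and at 10.6 and 10.6 treated (0.76 ± 0.34). Spen and Rbm15, both RNA-binding partners of Xist, were the lower ones, with differences of -0.39 and -0.19. Of 35 subunits of PRC1 and PRC2, 2 were higher (5.71%) and 5 were lower (14.3%), with a median of -0.07. Ezh2, the enzyme of PRC2, overlapped at 13.5 and 8.4 untreated and at 9.07 and 13.9 treated (0.07 ± 0.37), and the 2 higher subunits were Rbbp4 and Aebp2, by 0.32 and 0.37. Across the X chromosome, 61 of 710 units were higher (8.59%) and 77 were lower (10.8%), near the 8.94% and 10.8% of the 19040 autosomal units, and the median difference of X units was 0.006. Among wide shared differences, 3 X units were higher (0.423%, against 0.819% of autosomal units) and 16 were lower (2.25%, against 0.914%), a difference that was not tested. Itm2a, a membrane protein of mesenchymal precursors, was one of the 16, at 36.9 and 64.6 FPKM untreated and at 12.7 and 15.8 treated (-1.71 ± 0.37).

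Genes of proliferation were mostly a little higher in the mean but seldom separated the groups. Of 44 genes of DNA replication and S phase, 39 lay above zero with a median of 0.23. Without overlap, 3 were higher and 1 was lower (6.82% and 2.27%, against 8.92% and 10.8% of all units). Of 38 genes of mitosis, 36 lay above zero with a median of 0.36, and 0 were higher and 1 was lower (0% and 2.63%). Untreated sample 13 was the low one, with a median deviation from the 4-sample mean of -0.53 over the S phase genes and -0.54 over the mitotic ones, while sample 6 was at 0.25 and 0.19. Treated sample 14 was at -0.05 and -0.14, below untreated sample 6, and treated sample 15 was at 0.26 and 0.52. Rrm2, the regulated subunit of ribonucleotide reductase, was at 79.6 and 41.8 untreated and at 142 and 89.8 treated (0.96 ± 0.42). Among 32 inhibitors, cyclins and targets of p53, 6 were lower (18.8%, against 10.8% of all units) and 0 were higher. Gadd45a, a growth arrest and DNA damage gene, was at 27 and 22.2 FPKM untreated and at 14.1 and 11.3 treated (-0.90 ± 0.30). Cdkn1a, which encodes the p21 protein that CIZ1 binds, overlapped at 245 and 322 untreated and at 313 and 204 treated.

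Units with a single gene symbol and the widest gap between the groups include several outside the lists. Higher in the treated samples, after Ciz1 and the Rpl34-ps2 unit, came mostly pseudogenes and predicted genes that were listed at 0 in both untreated samples, namely Gm9431, Gm14303, Gm9387, Gm42977, Gm11663 and Gm9174. Gm9431 was at 15.4 and 28.1 FPKM in the treated samples, and the 5 other primary populations had it at 17.2 to 44.6, so the untreated inducible pair was the exception there. The protein-coding genes of the set were Ctss, Grem1 and Ephx2, with the transcript U90926. Ctss, a lysosomal protease of antigen-presenting cells, was at 0.702 and 0 untreated and at 6.89 and 9.75 treated (2.82 ± 0.40). Ephx2, a soluble epoxide hydrolase, was listed at 0 in both untreated samples and at 1.99 and 2.04 treated. U90926 was at 2.39 and 0.938 untreated and at 9.03 and 9.22 treated (1.98 ± 0.37).

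Among other protein-coding genes above 0 in all 4 samples, chosen after their values were seen, the proliferin unit Prl2c2,Prl2c3 had the widest gap after Ciz1, at 3.54 and 0.792 FPKM untreated and at 21.4 and 31.5 treated (3.24 ± 0.51). Proliferins are secreted placental hormones that growing mouse fibroblasts also make, and reads of this family cannot be divided with confidence among its near-identical members. Cbr3, a carbonyl reductase, was at 2.62 and 2.15 untreated and at 10.1 and 8.53 treated (1.61 ± 0.30), and Mt2, a metal-binding metallothionein, was at 3.24 and 2.02 untreated and at 9.63 and 11.3 treated (1.68 ± 0.32). Cck, the peptide cholecystokinin, was at 20.8 and 10.6 untreated and at 101 and 42.4 treated (2.06 ± 0.52). Pparg, the master regulator of fat cells, was at 0.677 and 1.94 untreated and at 6.69 and 3.9 treated (1.47 ± 0.43).

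Lower in the treated samples with the widest gaps were Nell2, Gm20430, Aif1, Ifitm1, Mest, Sphk1, C1qtnf7, Igfbp3, Podn, Zcchc5, Itm2a and Fndc1. Nell2, a secreted glycoprotein best known from neurons, was at 8.46 and 3.5 FPKM untreated and listed at 0 in both treated samples. It was also listed at 0 in the 3 WT PEFs and stood at 1.88 and 2.91 in the 2 null PEFs without the transgene. Podn, a leucine-rich proteoglycan that restrains growth of smooth muscle cells, was at 10.8 and 30 untreated and at 2.57 and 4.04 treated (-2.17 ± 0.52). C1qtnf7, a secreted relative of adiponectin, was at 2.16 and 3.51 untreated and at 0.248 and 0.169 treated (-1.64 ± 0.36). Of 2 genes that were on no list and were chosen after their values were seen, Mfap4, a protein of microfibrils, was at 90.6 and 178 untreated and at 14.9 and 50.8 treated (-2.16 ± 0.63), and Itga11, the alpha chain of a collagen receptor, was at 36 and 52.9 untreated and at 16.9 and 12.1 treated (-1.55 ± 0.34).

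**Figure D4:**
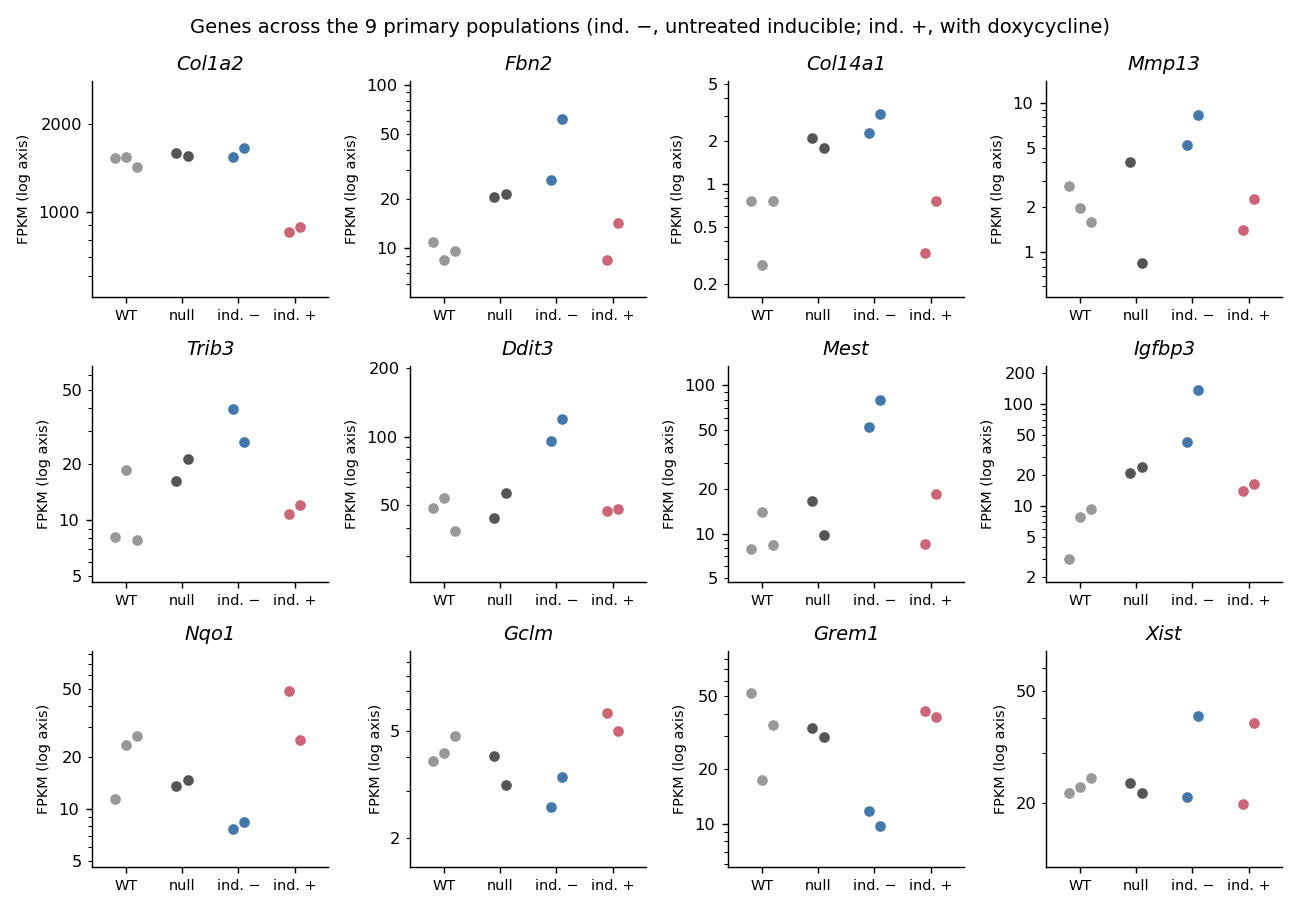
FPKM on log axes of 12 genes in the 9 primary samples, 1 point per sample, grouped as WT, CIZ1 null without the transgene, untreated inducible and doxycycline-treated inducible. For Ddit3 and Mest the untreated inducible pair is the group that stands apart, and for Igfbp3 that pair lies highest and WT lowest. For Col1a2 it is the treated pair that stands apart (851 and 889), and for Xist the pairs overlap.

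Each pair of samples was also set against the range of the 5 other primary samples, 3 WT and 2 null. Since members without overlap are more likely to lie outside that range on 1 side, the shares are given beside those of all units without overlap in the same direction. Of the 2140 units that were lower, the untreated pair lay above the range in 38.9% and the treated pair below it in 17.9%. Of the 190 with a wide shared difference downwards, the untreated pair was above the range in 100 (52.6%) and the treated pair below it in 35 (18.4%). Of the 21 lower members of the stress response list, the untreated pair was above the range in 12 (57.1%) and the treated pair below it in 4 (19%). Of the 27 lower members of the matrix list, the treated pair was below the range in 15 (55.6%) and the untreated pair above it in 6 (22.2%). Of the 7 lower imprinted genes, the untreated pair was above the range in 5 (71.4%). Of the 1763 units that were higher, the treated pair lay above the range in 21.3% and the untreated pair below it in 37.4%. Of the 12 higher NRF2 members, the treated pair was above it in 7 (58.3%) and the untreated pair below it in 4 (33.3%). The difference between lists in this respect was not tested.

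The design also allows the question of whether units that differ between WT and null PEFs moved towards the WT level with doxycycline. Units that differ between WT and null PEFs were therefore taken from the 3 WT and 2 null populations without the transgene, which share no sample with the doxycycline comparison, at an unadjusted limma p under 0.01 and without overlap. Of 19443 units tested in that comparison 3 passed the adjusted threshold and 237 met this looser one, of which 17 were not tested with doxycycline. By chance alone a share near 0.01 of all units would meet that p, so most of the units chosen are not shown to depend on CIZ1. Of the 140 that were higher in null than in WT, 102 were lower in the mean of the treated samples than in that of the untreated ones (72.9%, against 50.4% of the 18694 units tested in both comparisons), with a median log2 difference of -0.34. Without overlap, 34 of them were lower (24.3%, against 10.5%) and 5 were higher (3.57%, against 8.98%), and 18 and 0 met the stricter definition. Of the 80 that were lower in null, 47 were higher in the treated mean (58.8%, against 49.6%), with a median of 0.15, and 9 were higher without overlap (11.3%) and 5 lower (6.25%). At an unadjusted p under 0.05 the shares were 64.2% of 575 units and 60.5% of 372. The asymmetry between the units higher and lower in null was not tested, and for the units lower in null the share rests on treated sample 14, without which 41.3% were higher.

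Among the units higher in null and lower in the treated samples, those with the widest gaps included units of Eln, Col14a1, Igfbp3 and Egfl6. Eln had a unit at 2.08 to 2.47 FPKM in WT, at 8.22 and 6.57 in null, at 18.8 and 37.2 in untreated inducible cells and at 11.3 and 3.36 with doxycycline. Col14a1 was at 0.274 to 0.759 in WT, at 2.09 and 1.8 in null, at 2.27 and 3.08 untreated and at 0.331 and 0.765 treated. Igfbp3 was at 3.02 to 9.28 in WT, at 20.9 and 24.3 in null, at 42 and 138 untreated and at 14.1 and 16.2 treated. In these genes the treated values were near those of WT for Col14a1 and between WT and null for Igfbp3, and in Eln sample 14 stayed above the null values. Egfl6, a secreted matrix protein, was at 0.966 to 3.4 in WT, at 5.25 and 9.63 in null, at 5.56 and 9.83 untreated and at 2.36 and 3.13 treated. Against the trend, Fgf10, a growth factor for epithelium, was higher in null at 5.89 and 3.86 against 1.58 to 2.32 in WT and also higher in the treated samples, at 5.82 and 5.39 against 1.8 and 4.45.

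Among the units lower in null, Ciz1 itself led. Its place is set in advance by the gene trap and the transgene, yet it is included in the counts of units lower in null given above. Klk8, a secreted serine protease, was at 20.3 to 31.5 FPKM in WT, at 12.2 and 13.3 in null, at 12.6 and 7.5 in untreated inducible cells and at 25 and 20.1 with doxycycline (1.13 ± 0.35). Uchl1, a ubiquitin hydrolase, was at 40.8 to 41.3 in WT, at 26.6 and 26.1 in null, at 19 and 15.2 untreated and at 42.7 and 22 treated (0.82 ± 0.39), where sample 14 alone reached the WT level. For Klk8, sample 14 lay within the WT range and sample 15 just under it. Elovl4, an elongase of very long fatty acids, went the other way, at 3.86 to 14.9 FPKM in WT, listed at 0 in both null, at 3.76 and 2.03 untreated and at 1.8 and 0 treated.

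**Figure D5:**
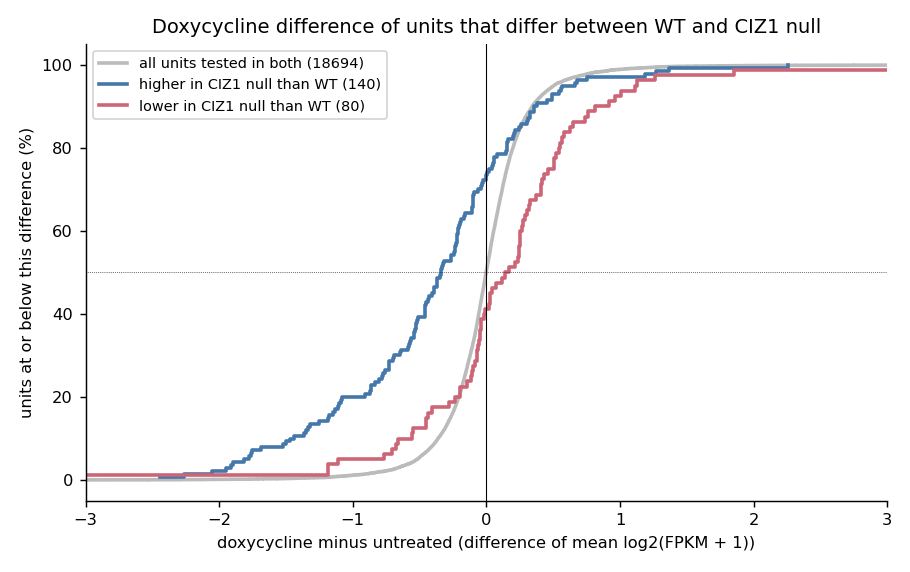
Cumulative share of units, in percent, at or below each difference between doxycycline and untreated on the log2(FPKM + 1) scale, for the 18694 units tested in both comparisons (grey), the 140 higher in null than in WT (blue) and the 80 lower in null (red). The blue curve lies to the left, with 72.9% of its units below zero, and the red curve crosses zero with 58.8% of its units above it.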

How the data were processed

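RNA selected by its poly(A) tail was sequenced from both ends, with a kit that does not mark strand. Per the labels and the study's methods, the authors trimmed reads with Cutadapt 1.8.3, aligned them to GRCm38 with HISAT2 2.0.5, assembled transcripts with Cufflinks, and deposited FPKM per transcription unit from Cuffnorm (Cuffdiff 2.2.1). The authors' own comparisons (log2 fold changes, p-values and q-values) were deposited as well and were not used here. FPKM give no read counts, so depth is known in relative terms only. Of the 19768 units tested, 18927 share a locus with another, so reads can be divided between units. A gene in a list is given by the unit named for it alone, with the highest mean where there are several.

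From the deposited FPKM, log2(FPKM + 1) was computed for units with a mean of at least 1 FPKM, and 2 treated and 2 untreated samples were fitted with limma 3.58.1 in R 4.3.3 (eBayes with a trend), with Benjamini-Hochberg adjustment over all units and a threshold of 0.05. The fit was run on simulated data with known changes put in, and the check concerned the mean size of its estimates and not the calls. Differences on this scale understate those of low units. Other steps used Python 3.11.15, pandas 2.3.3, NumPy 2.4.6 and Matplotlib 3.10.9, and promoters from RefSeq (GRCm38.p6), matched by symbol.

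Groups came from the labels. The source name of sample 6 reads S13 while its title reads S06, and both belong to the untreated inducible group. The series text counts 3 inducible samples, and the labels give 4. The members, the 23 gene lists and the 7 marker lists were chosen with earlier results of these data known. A rule for naming genes took those called, the 12 widest gaps in each direction, up to 4 per list and Xist. It also took the 6 widest gaps of each kind among units that differ between WT and null. Not all of these are given, and further list members are named that the rule did not pick, chosen with their values known. Alternatives covered the pseudocount, filter, scaling, trend, each sample left out and other sets of samples. Some genes are not reported here.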

Additional observations from a re-analysis of the deposited data

How the results depend on the processing

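The count of units that passed the adjusted threshold in limma, 2, was 0 with no filter on FPKM (872 units at an unadjusted p under 0.05), 0 to 0 with each sample left out in turn (373 to 548), 0 with samples paired by likeness (848) and 0 of the 841 units alone at their locus (12). It was 3 with all 9 primary samples in the fit. Units with a wide shared difference upwards, 159, numbered 256 with a pseudocount of 0.1, 65 with a mean FPKM of at least 5, 310 to 670 with each sample left out, and 69 with an untreated arm of all 4 untreated null samples. Units with a wide shared difference downwards, 190, numbered 345, 94, 456 to 542 and 74 under the same settings, and 286 with quantile normalization. The causes were not tested, but leaving out a sample makes non-overlap easier by construction, as 27.2% to 33.8% of all units then qualify in a direction, and a larger untreated arm makes it harder, with 4.03% lower and 3.28% higher. The lower members of the stress response list, 21, then numbered 24 to 32 and 7, those of the protease list, 11, were 7 in the larger arm, the higher NRF2 members, 12, were 15 to 19 with a sample left out and 8 of 28 in the larger arm, and the lower imprinted genes, 7, were 7 to 22 (22 without untreated replicate 6) and 4 in the larger arm. Matrix members lower without overlap stayed at 22 of 40 or more under each setting but the stricter filter, where they were 25 of 38.

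Ciz1 kept its direction throughout, with an adjusted p of 0.0594 with no filter, 0.0881 to 0.438 with each sample left out and 0.206 when paired by likeness (limma, Benjamini-Hochberg). Rpl34-ps2 gave 0.0594, 0.0973 to 0.438 and 0.161, with 0.706 with all 9 primary samples and 1 against the larger arm, and its log2 difference was 5.30 when units were summed.

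Of 245 named units, 230 kept the direction of their difference under all 13 settings, and 17 of 3118 values reversed it. When units with the same name and locus were summed, Sncg was at -0.85, Pemt at -0.65, Fos at -0.049 and Trappc6a at -0.13. Against the larger untreated arm, Xist was at 0.10, Pcgf5 at 0.15, Csf1 at -0.0079, Myh11 at -0.085, Peg12 at -0.015, Inhba at -0.31, Wnt4 at -0.18, Tpbg at -0.080, Gm21811 at 0.25, Gatsl3 at 0.17 and a unit without a symbol at 0.74. With each sample left out Xist ranged from -0.54 to 0.38, and was above zero without untreated replicate 13 and without treated replicate 14. Among units higher in null than WT the share with a lower treated mean ranged from 62.1% to 75.7% with a sample left out, and among those lower in null the share with a higher treated mean ranged from 41.3% to 67.5%.

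No pairing could be taken from the labels, which do not say which embryo each sample came from, and the sample numbers of the groups differ. A change in the same direction in both embryos can therefore still count as overlap. The pairing by likeness (sample 6 with 14, and 13 with 15) rests on correlations in these samples and not on the labels. That pairing, the summing of units and the counts with the larger untreated arm were chosen after seeing the data.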

Other observations

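Interferon-stimulated genes separated samples within each group and not the groups. Of 36 tested, 1 was higher (Oas1g) and 1 was lower (Ifi27) without overlap, 2.78% each, against 8.92% and 10.8% of all units. The median deviation from the 4-sample mean was -0.59 and 0.35 in untreated samples 6 and 13 and -1.16 and 1.35 in treated samples 14 and 15. Isg15, a ubiquitin-like protein induced by interferon, was at 20.4 and 58.2 FPKM untreated and at 5.04 and 257 treated. Irf7, a transcription factor that amplifies the response, was at 1.96 and 7.45 untreated and at 1.29 and 33.9 treated. The other 5 primary populations had Isg15 at 6.93 to 49.4 FPKM, so sample 15 was above all of them.

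In several lists few members separated the groups, beside 8.92% of all units higher and 10.8% lower. The respiratory chain had 4 of 38 members higher (10.5%) and 4 lower (10.5%), and glycolysis and the hypoxia response 1 and 3 of 34 (2.94% and 8.82%). Sterol and fatty acid synthesis had 0 and 2 of 33 (0% and 6.06%), and the mitochondrial ribosome and its chaperones 1 and 3 of 27 (3.7% and 11.1%). Hox genes had 1 and 5 of 28 (3.57% and 17.9%), and mesenchymal and patterning transcription factors 3 and 2 of 38 (7.89% and 5.26%). Immediate early genes had 2 and 0 of 26 (7.69% and 0%), and contractile and YAP target genes 2 and 3 of 30 (6.67% and 10%). Histones had 0 and 1 of 16 (0% and 6.25%), and mitochondrially encoded genes 0 and 0 of 4. Of the contractile list, Nov and Wisp1, both secreted matricellular proteins of the CCN family, were lower, and Nov was at 27.7 and 93.3 FPKM untreated and at 15.6 and 18.8 treated.

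Only 2 units in the whole table were above 0 in both treated samples and at 0 in the 13 others, and none was the opposite. Both are without a gene symbol and share the locus chr10:47274071-47274449, at 6.12 and 10.4 FPKM for one and 7.21 and 7.20 for the other (limma, adjusted p = 0.551 and 0.426 by Benjamini-Hochberg).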
